A study of Mus musculus with 28 samples.

Results

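Heat shock proteins and chaperones were described in MC38, a mouse tumour line of colon adenocarcinoma, from 19 libraries that read the 3′ end of messenger RNA. The members are all genes whose names fit a rule: heat shock proteins of the Hsp families, J-domain proteins (Dnaja, Dnajb, Dnajc), subunits of the TRiC chaperonin (Tcp1 and the Cct genes) and Bag1 to Bag6, leaving out names that mark pseudogenes. This gave 71 of the 12274 gene names that the 2 expression tables share, of which 25 were Dnajc genes, 9 Dnajb, 4 Dnaja, 9 HSP70 or HSP110, 8 TRiC subunits, 6 Bag, 3 HSP90, 3 with Hspb names, 2 subunits of the mitochondrial chaperonin and 2 binding proteins of heat shock proteins. In the in vitro table, MC38 cells were given tumour necrosis factor (TNF) and interferon gamma (IFNG) together, TNF, IFNG, or supernatant of a co-culture, or were left untreated, with 2 libraries each. In the co-culture table, MC38 cells grew beside OT1 T cells in the presence of anti-PD1 antibody or of an isotype antibody as its control, or grew alone, with 3 libraries each. The OT1 cells are CD8 T cells with a transgenic receptor for an ovalbumin peptide. The cytokines and T cells acted for 6 hours. No time is recorded for the supernatant. All libraries come from 1 cell line. Whether a group's libraries were separate cultures is not in the labels, and the spread behind each p-value may thus be technical.

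Chaperones bind unfolded or partly folded proteins and use cycles of ATP binding to help them fold, to move them across membranes or to hand them to degradation. HSP70 proteins do this in every compartment, J-domain proteins bring them their clients and start ATP hydrolysis, and nucleotide exchange factors such as the Bag and HSP110 proteins end the cycle by releasing ADP. HSP90 acts later, on kinases, steroid receptors and other signalling proteins, among them components of TNF and interferon signalling, and TRiC folds actin and tubulin in a closed ring. Many chaperone genes are driven by heat shock factor 1 through heat shock elements, and those of the endoplasmic reticulum (ER) by the unfolded protein response.

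Some libraries stood apart. The reads implied by the steps of the low values ran between 3360000 (second TNF + IFNG library) and 11200000 in vitro, and between 3730000 (the third library of MC38 alone) and 11000000 in co-culture. The same library of MC38 alone also carried T cell messages: 20 of 24 T cell markers were measured, and they summed to 79.8 CPM (counts scaled to 1 fixed total per library) there, against 5.52 and 6.13 CPM in the other libraries of MC38 alone, 180 to 212 CPM with anti-PD1 and 183 to 227 CPM with isotype. Its interferon gamma message was also above theirs, at a log2 CPM of 1.85, against -1.63 and -2.66, and 6.27 to 6.66 in the co-cultures. The co-culture libraries thus mix RNA of both cell types, so that a change within MC38 cells and a share of T cell RNA cannot be told apart. For the third anti-PD1 library the labels conflict (title untreated, description anti-PD1), and its description was followed; 1 isotype library bears the name OT2, not OT1, in its description. Of 10 epithelial markers, 1 was measured in vitro and 5 in co-culture, summing to 0.259 to 7.86 CPM and to 1.61 to 33.3 CPM, so the epithelial label rests on weak messages.

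The start sites of the members were searched for heat shock elements, because these are the sites through which heat shock factors act. RefSeq windows of 250 bases before the start (GRCm38.p6) were at hand for 57 of the 71 members. A pair of facing units, written GAANNTTC or TTCNNGAA (both read the same on either strand, and the 2 overlap in longer arrays), stood in 8 (14.0%) and 7 (12.3%) of the 57, against 7.73% and 8.11% of all 27025 gene symbols in the table. An array of 3 alternating units, either motif with 1 more unit at the same spacing, stood in 3 members, Hspe1, Hspd1 and Dnajb6 (5.26%), against 0.514% of all symbols. The interferon gamma activated site TTCNNNGAA stood in 4 members (7.02%, against 8.13%), and the CCAAT box on either strand in 20 (35.1%, against 37.5%). A match describes letters only. The stretches below belong to members that the results turn on, in lower case with each heat shock element in capitals, and read 5′ to 3′ on the strand of the gene. Hspe1 and Hspd1, the mitochondrial chaperonin pair, lie head to head and share 1 array at chr1:55088053-55088082, which overlaps an annotated exon of Hspd1.
Hspe1: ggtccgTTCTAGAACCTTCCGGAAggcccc
Hspd1: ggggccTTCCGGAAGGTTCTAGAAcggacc
Hsph1 is shown at chr5:149636351-149636380 on the minus strand, and overlaps its own annotated first exon.
Hsph1: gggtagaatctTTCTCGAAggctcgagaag
Dnajb4 is shown at chr3:152193846-152193945 on the minus strand, the 100 bases before its start.
Dnajb4: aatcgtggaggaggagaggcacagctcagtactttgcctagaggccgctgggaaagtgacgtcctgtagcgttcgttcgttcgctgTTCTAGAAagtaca
Cct2 is shown at chr10:117063376-117063475 on the minus strand, also the 100 bases before its start.
Cct2: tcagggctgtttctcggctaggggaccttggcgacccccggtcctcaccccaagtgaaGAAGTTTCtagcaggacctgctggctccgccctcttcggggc

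The family spanned the whole range of expression. Because 1 read is made per transcript, a level does not grow with transcript length, and levels are given as the authors' normalized log2 CPM. In untreated cells the group means of the members ran between -0.03 for Hspa2, an HSP70 best known from the testis, and 13.28 for Hsp90ab1, the constitutive cytosolic HSP90. Hspd1, the large subunit of the mitochondrial chaperonin, followed at 11.77 ± 0.17 (SD, n = 2), then Hspa5, the HSP70 of the ER also called BiP, at 11.11 ± 0.13, and Hsp90aa1, the inducible cytosolic HSP90, at 10.61 ± 0.12. Cct7 at 10.55 and Hspa8, the constitutive cytosolic HSP70, at 10.42 ± 0.04 came next. Hsp90aa1 and Cct7 lay within the spread of the Hsp90aa1 pair, and the other neighbours in this order did not. In MC38 alone the order of the highest members was Hsp90ab1, Hspa5, Hspa8 and Hspd1, at 12.84 ± 0.03, 10.97 ± 0.06, 10.29 ± 0.38 and 10.22 ± 0.11 (SD, n = 3), of which Hspa8 and Hspd1 lay within each other's spread.

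The members together made up a few percent of all messages. They summed to 3.35% and 3.19% of the summed CPM in the TNF + IFNG libraries, 2.84% and 3.38% with TNF, 3.25% and 3.31% with IFNG, 2.92% and 3.29% with supernatant, and 2.93% and 2.81% in untreated cells. Both cytokines together and IFNG alone lay above the untreated pair. Much of the difference lay in Hsp90ab1 alone, which made up 1.32% or 0.992% of the summed CPM in vitro and took only these 2 values. A library's quantile-normalized value depends on the rank of the gene, so a top gene moves in steps. In co-culture the members summed to 1.87% to 2.07% with anti-PD1, 1.94% to 2.15% with isotype and 1.89% to 2.10% in MC38 alone, ranges that overlap. The heat-inducible Hspa1b was measured in co-culture only, at a log2 CPM of -2.30 to 0.06 with anti-PD1, -1.60 to -1.27 with isotype and -0.81 to 0.50 in MC38 alone, too low to be tested. Hspa1a and Hspb1 were not analysed here.

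**Figure D1:**
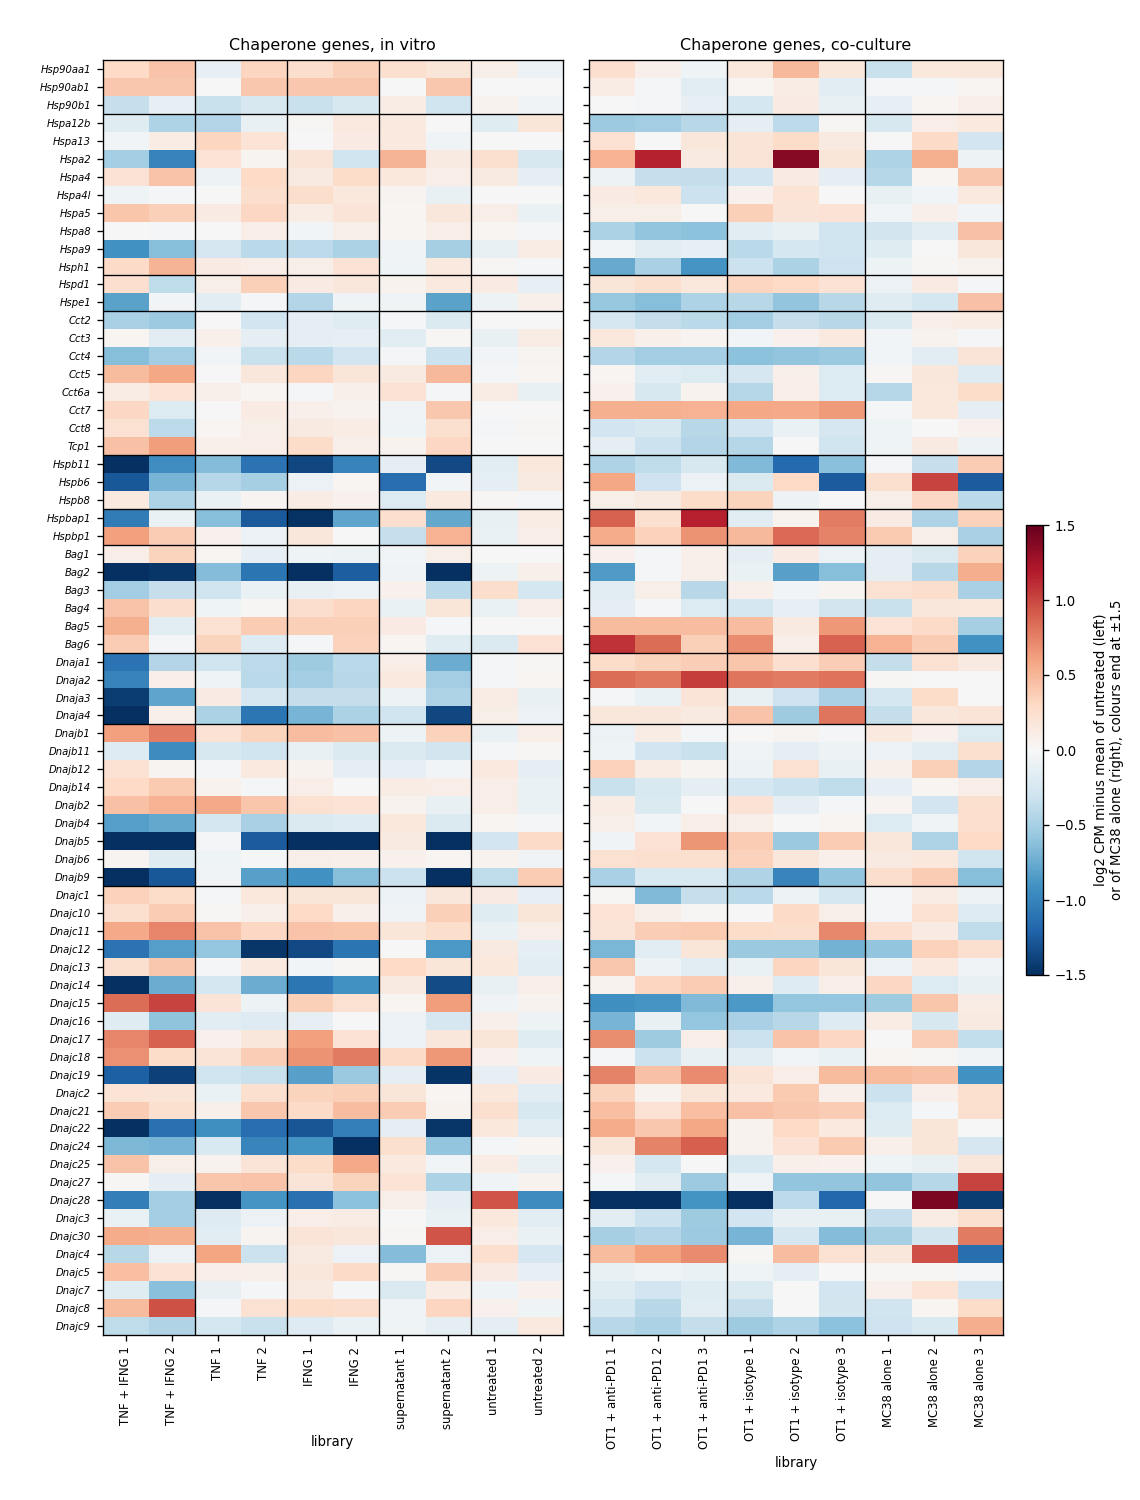
Difference of each library (columns) from the mean of untreated cells (left panel) or of MC38 alone (right panel), in log2 CPM, for the 71 members (rows, in order of family: HSP90, HSP70 and HSP110, mitochondrial chaperonin, TRiC, Hspb names, binding proteins, Bag, Dnaja, Dnajb, Dnajc). Colours end at 1.5 on either side. The 2 supernatant libraries differ from each other, and in the left panel Dnajb5, of low level, and Bag2, of middle level, are among the most strongly coloured.

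Under both cytokines 8 of the 71 members passed the test, 3 higher and 5 lower than in untreated cells. This is 11.3% of the members, beside 9.02% of the 12720 genes tested (4.77% higher and 4.25% lower), so the share is near that of all genes. At an unadjusted p under 0.05 there were 28 members (39.4%), beside 31.1% of all genes. The libraries of the 2 groups did not overlap in 48 members (67.6%), beside 59% of all genes, so libraries that lie apart are common here. The lower members were the mitochondrial HSP70 Hspa9, the mitochondrial J-domain protein Dnaja3, the cytosolic J-domain protein Dnajb4 and the TRiC subunits Cct2 and Cct4. The higher members were Dnajb1, the classical HSP40 partner of HSP70, and 2 mitochondrial J-domain proteins, Dnajc11 of the cristae-organising complex and Dnajc15 of the import motor. The median log2 change was -0.06 over the members and 0.02 over all genes.

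Hspa9, also called mortalin, which pulls proteins into mitochondria, had log2 CPM values of 8.04 and 8.31 with TNF + IFNG, against 8.83 and 9.06 in untreated cells. Both treated libraries lay below both untreated ones, by 0.77 ± 0.18 on the log2 scale (limma, SE, adjusted p = 0.038). TNF alone gave 8.69 and 8.54 and IFNG alone 8.56 and 8.48, between the other 2 groups. Dnaja3, its J-domain partner in mitochondria, stood at 2.42 and 3.06 with both cytokines, against 3.96 and 3.74 in untreated cells, and fell by 1.11 ± 0.26 (limma, adjusted p = 0.0401). Here the treated libraries differed by more than the untreated ones, and the level is low. IFNG alone gave 3.49 and 3.50 and TNF alone 3.97 and 3.59.

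Dnajb4, a cytosolic partner of HSP70 whose start region carries the element printed above, had 4.26 and 4.32 with both cytokines, against 5.12 and 5.06 in untreated cells. It fell by 0.80 ± 0.17 (limma, adjusted p = 0.0321), the smallest adjusted p among the members. Its values with TNF alone, 4.82 and 4.60, and with IFNG alone, 4.87 and 4.89, also lay below the untreated ones, by differences of -0.38 and -0.21 that did not pass the test. Dnajb1, which in other cells is a strong target of heat shock factor 1, stood at 5.78 and 5.93 with both cytokines, against 5.06 and 5.26 in untreated cells, and rose by 0.69 ± 0.17 (limma, adjusted p = 0.0435). Dnajb1 and Dnajb4 therefore moved apart. The Dnajb1 values of TNF alone (5.38 and 5.49) and IFNG alone (5.62 and 5.60) lay between.

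Dnajc15 rose by 0.92 ± 0.21 (limma, adjusted p = 0.0382), with 5.24 and 5.42 in the TNF + IFNG libraries against 4.36 and 4.45 in untreated cells. TNF alone left it at 4.60 and 4.33 and IFNG alone at 4.77 and 4.63. Dnajc11 stood at 4.98 and 5.14 with both cytokines, against 4.31 and 4.52 in untreated cells, a rise of 0.65 ± 0.15 (limma, adjusted p = 0.0391). Its values with TNF alone, 4.85 and 4.72, and with IFNG alone, 4.85 and 4.82, were above both untreated libraries. The differences of 0.37 and 0.42 did not pass the test (limma, adjusted p = 0.766 with TNF and at least 0.341 with IFNG).

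**Figure D2:**
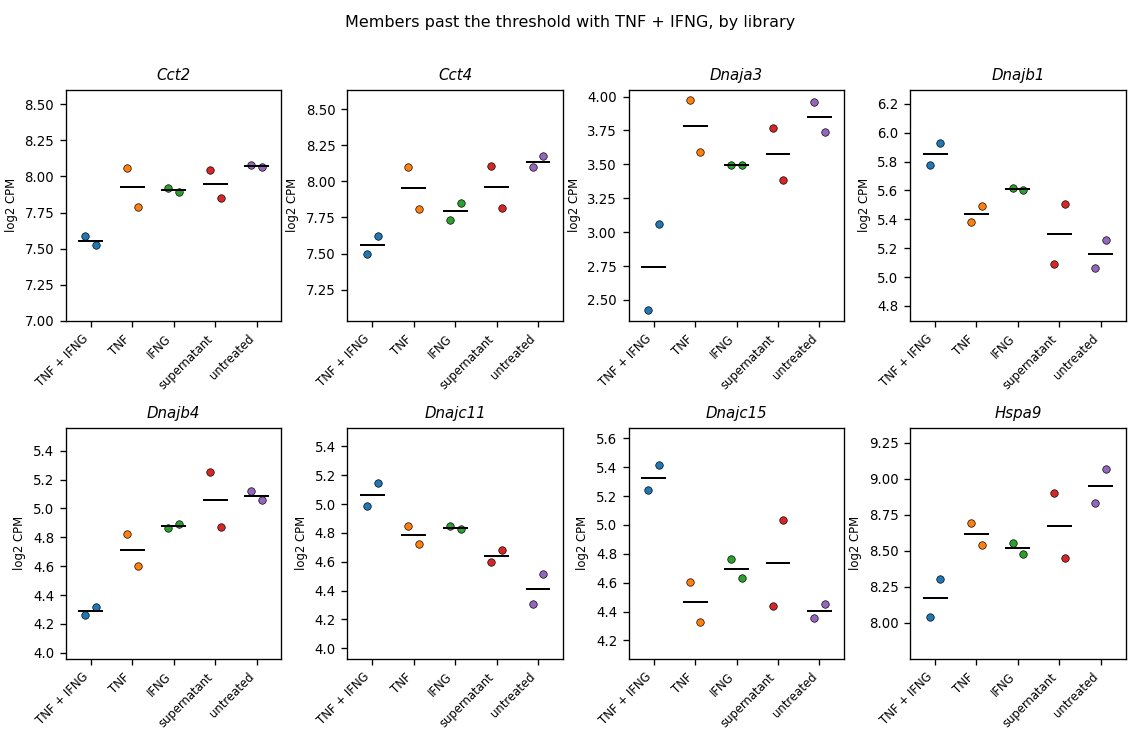
Log2 CPM of the 8 members past the threshold with TNF + IFNG, 1 point per library (2 per group) and a line at the group mean. In each panel the TNF + IFNG libraries lie apart from the untreated ones, and the supernatant libraries often lie far apart from each other.

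These calls sit close to the threshold and depend on the fit. With either supernatant library left out, all 8 members stayed called and others were added. Without either IFNG or either untreated library all 8 lost their call. Without either TNF library only Dnajb4 was kept, without the second TNF + IFNG library only Dnaja3, and without the first only Dnajc11. Leaving out the first TNF + IFNG library also brought in Dnajb11 and Dnajc8, which are not among the 8 (differences -0.94 and 0.96). The share over all genes was counted in the main fit only. Without such a share beside it, the fit without any supernatant library gave 18 calls (6 higher, 12 lower, all 8 among them). It added Bag2, Dnajb9, Dnajc14, Dnajc19, Dnajc22, Dnaja1 and Hspb11 as lower and Tcp1, Cct5 and Dnajc8 as higher. The 3′ ends of Dnajc14 and Dnaja1 overlap exons of Ormdl2 and Smu1 on the other strand.

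Wide differences without a call were seen in vitro for Dnajb5, Bag2, Dnajb9 and Dnajc19. Dnajb5 had log2 CPM values of -3.60 and -0.44 with both cytokines, against 0.80 and 1.38 in untreated cells (difference -3.11 ± 1.23, limma, adjusted p = 0.128). It is close to the floor of these libraries. Bag2, an exchange factor that also holds back the ubiquitin ligase CHIP, had 2.93 and 3.87, against 5.25 and 5.40 (difference -1.93 ± 0.53, limma, adjusted p = 0.0558). IFNG alone, at 3.83 and 4.10, also lay below both untreated libraries. Dnajb9, an ER J-domain protein and target of the unfolded protein response, had 0.25 and 0.81, against 1.696 and 2.46 (limma, adjusted p = 0.0895). Dnajc19, of the mitochondrial import motor, had 2.84 and 2.67, against 3.94 and 4.19 (limma, adjusted p = 0.058); its 3′ end overlaps an exon of Fxr1 on the other strand, and no source used here states if reads were counted by strand.

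With a single agent or supernatant no member passed the test. The background was 0.275% of all genes with TNF, 0.354% with IFNG and 0.448% with supernatant, and at an unadjusted p under 0.05 there were 4, 11 and 1 members (5.63%, 15.5% and 1.41%), beside 6.27%, 10.7% and 5.13% of all genes. Libraries did not overlap with the untreated ones in 30 members with TNF (42.3%), 50 with IFNG (70.4%) and 11 with supernatant (15.5%). Over all genes these shares were 42.9%, 56.2% and 32%. The largest difference with IFNG, Dnajb5 at -2.71 ± 1.23, rested on values of -0.44 and -2.81, against 0.80 and 1.38 in untreated cells. Dnajc18, a J-domain protein, had the smallest adjusted p with IFNG, 0.341 by limma, at 4.82 and 4.93 against 4.21 and 4.08 in untreated cells. For TNF this was Dnajb2, a J-domain protein known from neurons, at 4.57 and 4.43 against 4.11 and 3.90 (limma, adjusted p = 0.63). No member was called between TNF + IFNG and TNF (0.417% of all genes), between TNF + IFNG and IFNG (0.236%), or in the interaction of the 2 cytokines (0.0157%), with 14, 8 and 1 members at an unadjusted p under 0.05 (19.7%, 11.3% and 1.41%), beside 16.5%, 13.4% and 3.93% of all genes.

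The 2 supernatant libraries differed from each other, and so did the TNF + IFNG pair. In 10 members the supernatant libraries differed by more than 1 on the log2 scale, against 3 members for TNF + IFNG and 1 for untreated cells. For differences over 0.5 the counts were 20, 19 and 4 members. The median SD over all genes was 0.25 with supernatant, 0.26 with TNF + IFNG and 0.15 in untreated cells. Bag2 stood at 5.28 in the first supernatant library, within the range of untreated cells, and at 3.42 in the second, within that of TNF + IFNG. Dnajc14 had 5.53 and 4.05 in the same order, and Dnaja1, a cytosolic J-domain protein, 9.26 and 8.42. No call came from supernatant against TNF + IFNG either (0.236% of all genes); at an unadjusted p under 0.05 there were 13 members (18.3%), beside 16.8% of all genes. Without the second supernatant library the differences from TNF + IFNG were 1.88 for Bag2, 0.96 for Dnajb4, 1.16 for Dnajc19 and -0.77 for Dnajb1. These 4 members were picked by that fit, which leaves 1 supernatant library.

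**Figure D3:**
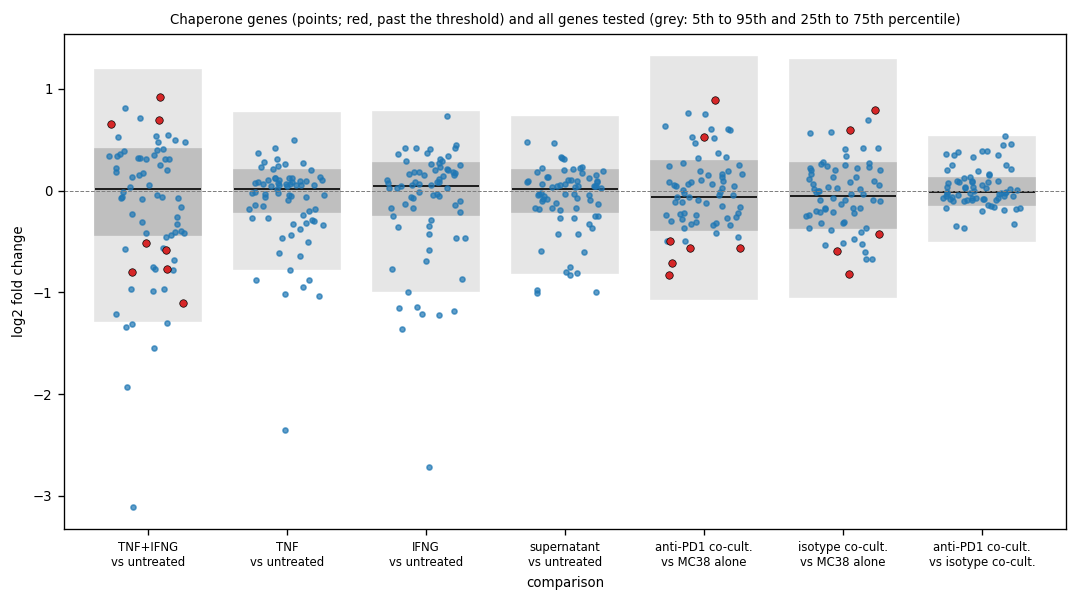
Log2 fold change of the members (points) in 7 comparisons, over the middle ranges of all genes tested (grey boxes) with their median (black line). Red points passed the threshold: 8 for TNF + IFNG, 7 for anti-PD1 and 5 for isotype co-culture against MC38 alone, and none elsewhere; most members lie inside the grey ranges.

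In co-culture with OT1 T cells a small group of members passed the test, and no member passed it between the antibodies. Against MC38 alone, 7 of 70 tested members passed with anti-PD1 (2 higher, 5 lower; 10% of members, beside 16.1% of 12707 genes, 8.42% higher and 7.71% lower) and 5 with isotype (2 higher, 3 lower; 7.14%, beside 13.9%, 7.64% higher and 6.22% lower), shares below those of all genes. The groups did not overlap in 19 members (27.1%) in either comparison, beside 33.1% of all genes with anti-PD1 and 31.9% with isotype. The comparisons share the libraries of MC38 alone. Dnaja2, a cytosolic J-domain protein, was the most clearly higher, followed by the TRiC subunit Cct7, while Cct4, Hsph1, Hspa8 and Hspe1 were among the lower ones. The median log2 change of the members was -0.02 in each, and that of all genes -0.06. Dnajc28 was too low to be tested.

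Dnaja2 stood at a log2 CPM of 7.97, 7.94 and 8.18 with anti-PD1 and 7.94, 7.91 and 7.95 with isotype, against 7.16, 7.13 and 7.13 in MC38 alone. The libraries of MC38 alone lie close together, the one with T cell messages included, and all co-culture libraries lie above them. The rise was 0.89 ± 0.09 with anti-PD1 (limma, adjusted p = 0.000159) and 0.80 ± 0.09 with isotype (limma, adjusted p = 0.000332). Both calls held when any 1 library was left out. In vitro the same gene had 6.87 and 7.97 with both cytokines, against 7.84 and 7.90 in untreated cells, a wide pair without a call.

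Hsph1, the HSP110 protein that exchanges the nucleotide of HSP70 and helps dissolve aggregates, had 5.38, 5.66 and 5.26 with anti-PD1 and 5.83, 5.67 and 5.84 with isotype, against 6.07, 6.16 and 6.20 in MC38 alone. The 3 groups stand in steps without overlap. The fall of 0.71 ± 0.13 with anti-PD1 passed (limma, adjusted p = 0.00413), also when any 1 library was left out, while the difference of -0.37 ± 0.13 with isotype did not (limma, adjusted p = 0.0865). The difference between the antibodies, -0.34 ± 0.13, did not pass either (limma, adjusted p = 0.9998). In vitro Hsph1 was at 7.57 and 7.78 with both cytokines, against 7.29 and 7.26 in untreated cells (difference 0.40, limma, adjusted p = 0.0902).

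Hspa8 had 9.81, 9.70 and 9.67 with anti-PD1 and 10.12, 10.17 and 9.99 with isotype, against 10.02, 10.13 and 10.73 in MC38 alone. The highest of these is the library with T cell messages. The fall with anti-PD1 was 0.56 ± 0.17 (limma, adjusted p = 0.046), and without that library 0.34 (adjusted p = 0.0402); with the third anti-PD1 library, of doubtful label, also left out the difference was -0.32 and the call was lost (adjusted p = 0.098). The call was also lost without any 1 of the 6 co-culture libraries or the second library of MC38 alone (adjusted p up to 0.133). With isotype the difference was -0.20 ± 0.17. In vitro Hspa8 lay between 10.37 and 10.52 in all 10 libraries.

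Of the mitochondrial chaperonin pair, Hspe1 had a call with anti-PD1 and Hspd1 had none. A part of the array that they share, printed above, was not tested. Hspe1, the lid subunit, had 8.56, 8.49 and 8.66 with anti-PD1 and 8.71, 8.53 and 8.71 with isotype, against 8.95, 8.87 and 9.57 in MC38 alone. It fell by 0.56 ± 0.17 with anti-PD1 (limma, adjusted p = 0.0488), and by 0.34 without the third library of MC38 alone (adjusted p = 0.0427), and the call was lost without any 1 of the 6 co-culture libraries (adjusted p up to 0.1415). With isotype Hspe1 differed by -0.48, which did not pass. Hspd1 had 10.41, 10.46 and 10.38 with anti-PD1 and 10.54, 10.53 and 10.44 with isotype, against 10.13, 10.34 and 10.20 in MC38 alone, differences of 0.19 and 0.28 that did not pass. Hspe1 minus Hspd1, taken within each library after their values were seen, averaged -1.84 ± 0.13 with anti-PD1 and -1.85 ± 0.13 with isotype, against -1.09 ± 0.43 in MC38 alone (SD, n = 3 each). An exact permutation test against MC38 alone gave p = 0.1 for each, the smallest value possible with 3 libraries per group. The libraries of MC38 alone had -1.185, -1.472 and -0.621, the last from the library with T cell messages.

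Dnajc15, which rose under both cytokines, had 3.99, 4.03 and 4.24 with anti-PD1 and 4.06, 4.33 and 4.33 with isotype, against 4.38, 5.33 and 5.03 in MC38 alone. The fall with anti-PD1 was 0.82 ± 0.23 (limma, adjusted p = 0.0332), which was lost without the third library of MC38 alone (difference -0.77, adjusted p = 0.0561), and also without the second, without any 1 of the anti-PD1 libraries or without the third isotype library (adjusted p up to 0.0999). Hspb11, which encodes the ciliary transport protein IFT25 despite its heat shock name, had 5.15, 5.23 and 5.37 with anti-PD1 and 4.95, 4.44 and 4.98 with isotype, against 5.58, 5.26 and 6.00 in MC38 alone. It fell by 0.82 ± 0.20 with isotype (limma, adjusted p = 0.025), a call lost without the second isotype or the first library of MC38 alone (adjusted p up to 0.0844), and the anti-PD1 libraries overlap those of MC38 alone.

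**Figure D4:**
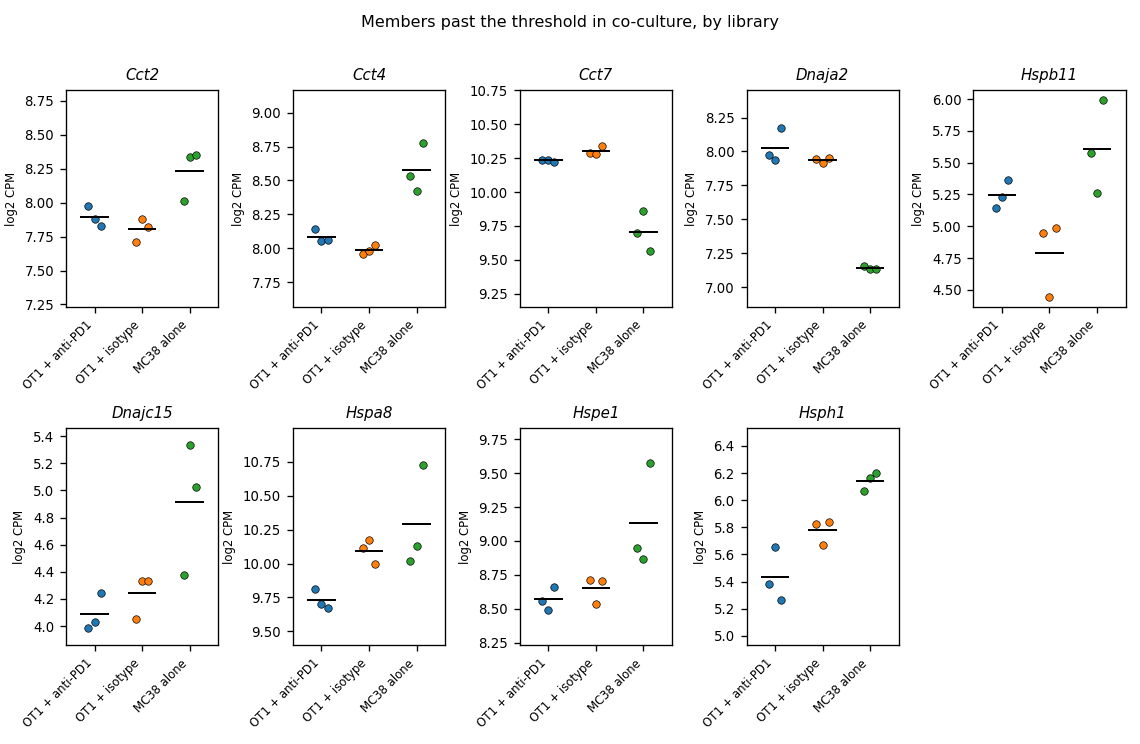
Log2 CPM of the 9 members past the threshold in a co-culture comparison with MC38 alone, 1 point per library (3 per group) and a line at the group mean. Dnaja2 and Cct7 lie higher and Cct4 lower in all 6 co-culture libraries, and the libraries of MC38 alone scatter widely for Hspa8, Hspe1 and Dnajc15.

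TRiC is a double ring in which each subunit type has its own place, and its subunit genes did not move together. Cct7 stood at 10.24, 10.24 and 10.22 with anti-PD1 and 10.29, 10.28 and 10.34 with isotype, against 9.70, 9.86 and 9.56 in MC38 alone. It rose by 0.53 ± 0.10 with anti-PD1 (limma, adjusted p = 0.00611) and by 0.59 ± 0.10 with isotype (adjusted p = 0.0032). Cct4 went the other way, with 8.14, 8.06 and 8.06 with anti-PD1 and 7.96, 7.98 and 8.03 with isotype, against 8.54, 8.42 and 8.77 in MC38 alone. It fell by 0.49 ± 0.11 (limma, adjusted p = 0.0116) and by 0.59 ± 0.11 (adjusted p = 0.00455). All 4 calls held when any 1 library was left out, the library with T cell messages included.

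Cct4 was also among the lower members under both cytokines, with 7.49 and 7.62 against 8.10 and 8.17 in untreated cells (difference -0.58 ± 0.15, limma, adjusted p = 0.0497). Cct2 had 7.59 and 7.52 with both cytokines, against 8.08 and 8.07 in untreated cells, and fell by 0.52 ± 0.14 (limma, adjusted p = 0.0497). In co-culture Cct2 had 7.98, 7.88 and 7.83 with anti-PD1 and 7.71, 7.88 and 7.82 with isotype, against 8.02, 8.34 and 8.35 in MC38 alone; it fell by 0.43 ± 0.11 with isotype (limma, adjusted p = 0.0329), not without the third library of MC38 alone (difference -0.37, adjusted p = 0.0573). The same held without the second, without any 1 of the isotype libraries or without the first or second anti-PD1 library (adjusted p up to 0.121). Tcp1 and Cct5 had values above untreated cells under both cytokines, 7.92 and 8.11 against 7.49 and 7.48 for Tcp1 and 9.41 and 9.52 against 8.91 and 8.96 for Cct5, and just missed the threshold (limma, adjusted p = 0.051 and 0.0589). The 3′ end of Tcp1 overlaps an exon of Acat3 on the other strand, and that of Cct8 an exon of Usp16. Cct3, Cct6a and Cct8 had no call with all libraries and the main filter. Under a stricter filter Cct8 was called with anti-PD1 (difference -0.31, limma, adjusted p = 0.0426). The same filter called Tcp1 and Cct5 higher under both cytokines (limma, adjusted p = 0.0444 and 0.049).

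**Figure D5:**
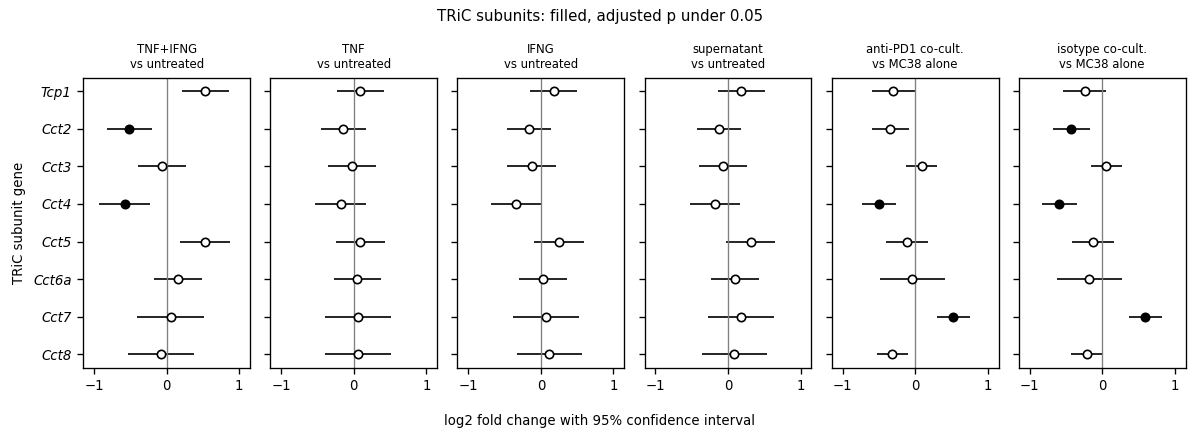
Log2 fold change with its 95% confidence interval for the 8 TRiC subunit genes in 6 comparisons, filled where the adjusted p is under 0.05. Cct4 is filled on the lower side with TNF + IFNG and in both co-cultures, Cct7 on the higher side in both co-cultures, and Cct2 on the lower side with TNF + IFNG and with isotype; the other 5 subunits are open.

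The HSP90 genes, the ER chaperones and the Bag genes gave no call in any comparison of the main fit. With library weights Dnajb9, of low level, was called lower with isotype than in MC38 alone (difference -0.87, limma, adjusted p = 0.0478). Its values were 1.54, 1.00 and 1.40 with isotype, against 2.25, 2.36 and 1.34 in MC38 alone, groups that overlap. Hsp90aa1 had log2 CPM values of 10.91 and 11.04 with both cytokines, against 10.70 and 10.53 in untreated cells (difference 0.36 ± 0.17), and Hspa5 11.53 and 11.47, against 11.20 and 11.02 (difference 0.39 ± 0.14, limma, adjusted p = 0.0991). In co-culture Hspa5 had 11.07, 11.07 and 10.98 with anti-PD1 and 11.33, 11.17 and 11.20 with isotype, against 10.94, 11.05 and 10.94 in MC38 alone. Hsp90b1, the HSP90 of the ER also called GRP94, differed by -0.23 ± 0.16 under both cytokines. Bag3, which with Hspb8 sends aggregates to autophagy and is a target of heat shock factor 1, had 5.43 and 5.61 with both cytokines, against 6.21 and 5.69 in untreated cells (difference -0.43 ± 0.22), and Hspb8 itself 9.32 and 8.72, against 9.20 and 9.16. Bag1 differed by 0.22 ± 0.14, and Bag6, a chaperone of tail-anchored proteins, by 0.18 ± 0.28.

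Partners outside the chosen names were read from 2 lists, on which the alternative fits were not run. Of 29 co-chaperones and heat shock factors, 4 were higher and 2 lower under both cytokines (20.7%, beside 9.02% of all genes). The list was chosen by hand with earlier results of these data known, so its share cannot measure an excess over all genes. These calls come from the fit whose 8 member calls sit close to the threshold. Stip1, which links HSP70 to HSP90, rose by 0.76 ± 0.19 and Sgta by 0.61 ± 0.16 (limma, adjusted p = 0.0459 for each). Cdc37, which brings kinases to HSP90, rose by 0.68 ± 0.14 and Sugt1 by 0.56 ± 0.12 (limma, adjusted p = 0.0302 and 0.0326). Hsf1, heat shock factor 1 itself, fell by 1.29 ± 0.34 at a mean of 2.27 against 3.56 in untreated cells (limma, adjusted p = 0.0498), and Serpinh1, the collagen chaperone, by 0.98 ± 0.16. The list's median change was 0.05. Of 25 measured genes of ER folding and the unfolded protein response 3 passed (12%). Sil1, the exchange factor of BiP, rose by 1.21 ± 0.20, while Manf fell by 1.23 ± 0.22 and Pdia6, a disulfide isomerase, by 0.90 ± 0.14; the median was -0.03.

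In co-culture the co-chaperone list held 3 calls with anti-PD1 (10.3%) and 2 with isotype (6.9%), and the ER list 3 (12%) and 2 (8%), beside 16.1% and 13.9% of all genes. Prefoldin hands clients to TRiC, and its subunit genes Pfdn5 and Vbp1 fell with anti-PD1 (by 0.70 ± 0.13 and 0.55 ± 0.14) and with isotype (by 0.67 ± 0.13 and 0.55 ± 0.14), while Pfdn2 rose with anti-PD1 by 0.55 ± 0.16. Of the ER list, Atf4, a transcription factor of the stress response, rose by 0.60 ± 0.13 and 0.65 ± 0.13, and Ero1l, which oxidises disulfide isomerases, fell by 0.41 ± 0.10 and 0.56 ± 0.10. Xbp1 rose by 0.47 ± 0.14 with anti-PD1. In the same comparisons 9 and 11 of 20 T cell markers passed the test as higher, and the median log2 change over all 20 was 2.67 and 2.83. A part of T cell RNA in these changes was not tested.

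Between the antibodies, anti-PD1 against isotype, 0 of 70 members and 0% of all 12707 genes passed limma's test. At an unadjusted p under 0.05 there were 2 members (2.86%) and 347 genes (2.73%). The 2 antibody groups did not overlap in 11 members (15.7%), beside 12% of all genes. The widest difference among the members was 0.54 ± 0.38, for Hspbap1, with 2.16, 1.51 and 2.44 with anti-PD1 against 1.11, 1.33 and 2.04 with isotype, 2 groups that overlap.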

How the data were processed

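Per the labels' protocols, libraries of the QuantSeq 3′ type were made from MC38 RNA. The submitters' processing notes list HISAT2, featureCounts and limma among the tools and GRCm38 (mm10) as the build, with no settings. The deposited values, named only as normalized counts, were read from the values as log2 CPM, since 2 to their power sums to 993229 to 998505 per library, and as quantile normalized, since the libraries of a table share their maximum. Normalization hides a shift of most genes together. The 2 tables were normalized separately, so no test crosses them, and 9 libraries of OT1 cells were not analysed here.

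For each table, 1 limma 3.58.1 model (R 4.3.3) held all its groups (empirical Bayes with an intensity trend; 5 residual degrees of freedom in vitro and 6 in co-culture). To be tested, a gene had to reach a log2 value of 0 in 2 or more libraries in vitro, or 3 or more in co-culture. P-values are 2-sided and adjusted by Benjamini-Hochberg over all genes tested, with a threshold of 0.05; errors of fold changes are limma's SE. The text names every member past the threshold and a list of well-known chaperones. Members and lists were chosen with earlier results of these data known. Alternatives were other filters, log2(CPM + 1), no trend, fewer groups, library weights, a replicate block and each library left out. Gene positions and 3′ overlaps come from GENCODE annotation of GRCm38 and start-site windows from RefSeq, GRCm38.p6.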

Additional observations from a re-analysis of the deposited data

How the results depend on the processing

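No fold change reversed its direction against a called value under any alternative run. The share of all genes was counted for the main fit only. The counts of members below thus have no background beside them, and a rise in a count may hold for all genes. Under TNF + IFNG the 8 calls fell to 0 without the intensity trend, to 0 when only TNF + IFNG and untreated libraries were fitted and to 3 with library weights, and stood at 18 with no supernatant libraries in the fit, an alternative chosen after seeing the data; the cause was not tested. With IFNG alone the count was 4 when only IFNG and untreated libraries were fitted, and library weights gave 1. With isotype it was 3 without the trend and 3 with only the compared groups, and with anti-PD1 4 with only the compared groups. Left out in turn, single libraries gave 0 to 18 calls for TNF + IFNG, 0 to 4 for supernatant against TNF + IFNG, 0 to 1 for TNF + IFNG against IFNG, 3 to 7 for isotype and 4 to 8 for anti-PD1; the lone library of a group of 2 is then assumed to vary like the other groups. Without the third library of MC38 alone and the third anti-PD1 library together, chosen after seeing the data, 6 members were called with anti-PD1, 5 of them shared with the full fit, and 5 with isotype, 3 of them shared. The added calls were Dnajc21, higher with anti-PD1 and with isotype (differences 0.45 and 0.53, limma, adjusted p = 0.037 and 0.0123), and Dnajb9, lower with isotype. Library weights also called Dnajc21 in both comparisons (limma, adjusted p = 0.0177 and 0.0097). Same-numbered libraries showed no clear joint deviation (correlations of -0.0715 to 0.101 in co-culture and -0.286 to 0.0941 in vitro). In vitro, with 2 libraries per group, the correlations of differently numbered libraries are the same values with the sign turned. Whether the numbers mark paired cultures thus cannot be decided from them. The replicate block left 1 call for TNF + IFNG and changed no other count by over 1.5 times. The lowest depth, 3360000 implied reads, limits members of low level, where a few reads make a log2 unit.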

Other observations

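The 4 pseudogene names that the rule leaves out were measured in both tables. Hspd1-ps3 had a log2 CPM of 8.21 in the second untreated library, against 4.40 in the first and 4.32 to 5.29 in the treated ones, while Hspd1 itself stood at 11.64 in that library and 11.89 in the first. Reads of near-identical copies can be split between a gene and its pseudogene, so the value of Hspd1 in that library is uncertain to that extent. In co-culture Hspd1-ps3 lay between 3.13 and 3.98 in all 9 libraries. Hspa9-ps1 had 3.56 and 3.98 with TNF + IFNG, against 3.44 and 2.79 in untreated cells, where Hspa9 itself was higher.

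Cct7 minus Cct4, taken within each library after their values were seen, averaged 2.15 ± 0.04 with anti-PD1 and 2.31 ± 0.02 with isotype, against 1.13 ± 0.33 in MC38 alone (SD, n = 3 each, log2 scale). An exact permutation test against MC38 alone gave p = 0.1 for each, the smallest value possible with 3 libraries per group. The libraries of MC38 alone had 1.158, 1.439 and 0.79, the last from the library with T cell messages. In vitro Cct7 minus Cct4 was 3.37 and 2.72 with TNF + IFNG, against 2.45 and 2.38 in untreated cells. Hsp90aa1 minus Hsp90ab1 averaged -3.41 ± 0.03 with anti-PD1 and -3.25 ± 0.14 with isotype, against -3.53 ± 0.27 in MC38 alone, groups that overlap.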
